A study of Mus musculus with 16 samples.

Results

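*Mt1*, *Mt2*, *Mtf1*, and *Slc30a1*, which encode 2 metallothioneins, the zinc-sensing transcription factor MTF1, and the zinc exporter ZnT1, were followed in lung group 2 innate lymphoid cells (ILC2s) by bulk mRNA-Seq. They are 4 of the 51912 genes in the table of read counts. They were chosen by the rise of *Mt1* counts with CGRP, which is read here as a rise against IL-33. The comparison of CGRP with IL-33 is therefore a description of that choice for all 4 genes and is given without a test. The same holds for the other comparisons of *Mt1* and *Mt2* between treatments that use those libraries. Differences between genotypes, with both genotypes in each treatment, were not part of the choice, although the CGRP and IL-33 libraries in them are the same. They were tested for *Mt1* and *Mtf1*. *Mt2* passed the filter on low counts only through the *Pac1*-/- CGRP libraries, so its difference between genotypes is described without a test. The ILC2s were sorted from lungs of WT and *Pac1*-/- mice (C57BL/6J background, 6 to 8 weeks old) and expanded with IL-2 and IL-7. *Pac1*-/- mice lack the phosphatase PAC1, encoded by *Dusp2*, in all cells. After removal of these cytokines the cells were stimulated for 4 hours with IL-7 alone (100 ng/mL), the same IL-7 with IL-33 (100 ng/mL), or both cytokines together with either CGRP or NMU (500 ng/mL). Below, these treatments are called IL-7, IL-33, CGRP, and NMU, and all 8 groups therefore received IL-7. About 500 ILC2s went into each library, with 2 libraries per group and 16 in all.

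Metallothioneins are small, cysteine-rich proteins that bind zinc and copper in the cytoplasm and buffer the free metal. When free zinc rises, MTF1 binds it, enters the nucleus, and activates genes that carry metal response elements (MREs), among them the metallothioneins and *Slc30a1*, whose product moves zinc out of the cell. *Mt1* and *Mt2* are also known to respond to glucocorticoids, oxidants, and cytokines. IL-33 is an alarmin that activates ILC2s. CGRP is a neuropeptide that raises intracellular cAMP and restrains them, whereas the neuropeptide NMU activates them.

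*Mt1* (ENSMUSG00000031765) lies on chromosome 8 of GRCm38 from 94179082 to 94180327, and *Mt2* (ENSMUSG00000031762) lies upstream of it on the same strand from 94172664 to 94173568, with 5513 bases between them. *Mtf1* (ENSMUSG00000028890) is on chromosome 4 from 124802104 to 124849800, and *Slc30a1* (ENSMUSG00000037434) is on chromosome 1 from 191906767 to 191913247. Because *Mt1* and *Mt2* were both highest with CGRP, the 250 bases before their RefSeq start sites (build GRCm38.p6, plus strand) are shown for the MREs, with every match to TGCACNC or TGCGCNC on either strand in capitals.
*Mt1*, chr8:94178839-94179088: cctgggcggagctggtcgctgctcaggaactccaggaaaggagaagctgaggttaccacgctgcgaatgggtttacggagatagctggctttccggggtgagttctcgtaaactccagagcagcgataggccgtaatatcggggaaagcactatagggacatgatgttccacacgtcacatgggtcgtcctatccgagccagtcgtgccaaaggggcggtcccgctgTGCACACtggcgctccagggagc
*Mt2*, chr8:94172368-94172617: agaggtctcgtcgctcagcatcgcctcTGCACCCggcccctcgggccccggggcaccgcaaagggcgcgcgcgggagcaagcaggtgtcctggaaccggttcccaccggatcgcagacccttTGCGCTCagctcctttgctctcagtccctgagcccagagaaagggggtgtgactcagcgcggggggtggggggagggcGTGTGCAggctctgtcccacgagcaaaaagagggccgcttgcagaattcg

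These windows held 1 match for *Mt1* and 3 for *Mt2*. The corresponding window held 1 match for *Slc30a1* and 0 for *Mtf1*. At least 1 match was present in 21.4% of the 32851 RefSeq promoters of this length, and at least 3 matches in 1.26%. Further matches lay downstream of these starts. The first 250 bases of the longest-reaching GENCODE transcript of *Mt1* held 4 matches, at 94179091, 94179109, 94179173, and 94179187 on chromosome 8, and those of *Mt2* held 3, at 94172676, 94172695, and 94172729. Among 58447 protein-coding transcripts, 0.192% held at least 4 matches and 0.828% at least 3 in their first 250 bases. All 4 *Mt1* matches lay before the start codon, which begins 229 bases after the first annotated start. Another 2 annotated *Mt1* transcripts start 129 and 159 bases after that first start, and all 4 matches lie upstream of both. The cAMP response element TGACGTCA was in none of the 4 upstream windows (1.55% of all promoters held it), and the AP-1 letters TGANTCA were in that of *Mt2* only, 1 match (6.75% of all promoters). Unlike the MREs, these 2 were not sought downstream of the starts, and partial matches were not counted for either. Such a match is a run of letters and no measurement of binding.

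The libraries held 6764992 to 15963357 counted reads each (median 11071278). Levels are given as CPM, the counts of a gene scaled to a total of 1e6 counted reads, and 3 counts, used as the floor of detection, corresponded to 0.188 to 0.443 CPM. No molecular identifiers are described, so this floor covers counting error only. *Dusp2* had 57 counts in the second WT IL-7 library, 29 in the first WT NMU library, and 0 in the other 14, so that its counts could not check most genotypes. ILC2 markers (13 of 13 detected, including *Gata3* and *Il1rl1*) summed to 15722 to 34919 CPM. Markers of other cell types stood apart in some libraries. The 3 B cell markers *Cd79a*, *Ms4a1*, and *Ebf1* summed to 104 and 98.8 CPM in the *Pac1*-/- CGRP libraries, to 0.566 and 17.5 CPM in the WT CGRP libraries, and to at most 8.27 CPM in the other 12. In the *Pac1*-/- CGRP libraries this sum was mostly *Ms4a1* (81.5 and 69.8 CPM). *Ebf1*, at 1.66 and 12.7 CPM there, overlapped its WT CGRP values (0 and 2.36 CPM). Epithelial markers (4 of 5 detected) summed to 216 and 318 CPM in the WT NMU libraries, led by *Sftpc*. In the other 14 libraries they summed to 10.8 to 94.6 CPM. *Epcam*, at 41.3 and 37.5 CPM with NMU in WT, lay within its range elsewhere. The 6 macrophage markers summed to 45.5 and 119 CPM in the WT NMU libraries and to at most 17.5 CPM elsewhere. This sum was mostly *Lyz2* (32.1 and 108 CPM). *Cd68* (12.4 and 10.9 CPM) lay within its range elsewhere, and *Chil3*, *Marco*, and *Mrc1* were at 0 in both WT NMU libraries. The 3 endothelial markers summed to 57.5 and 104 CPM in the WT NMU libraries and to 14.8 to 55.0 CPM in the other 14. In the WT NMU libraries this was mostly *Pecam1* (54.5 and 104 CPM), with *Cdh5* at 2.96 and 0 CPM and *Cldn5* at 0 in both. The libraries are labelled as replicates without naming animals or cultures, so *P* values measure the spread between these libraries only. In bulk RNA, a change in the number of cells that express a gene cannot be told apart from a change in RNA per cell.

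*Mt1* was highest with CGRP in both genotypes. It measured 96.9 and 75.2 CPM in the WT CGRP libraries and 274 and 249 CPM in the *Pac1*-/- CGRP libraries. With IL-7, it was at 28.0 and 17.2 CPM in WT and at 10.5 and 10.1 CPM in *Pac1*-/- ILC2s. With IL-33, it was at 7.85 and 2.94 CPM in WT and at 14.3 and 17.8 CPM in *Pac1*-/- ILC2s. The 12 libraries without CGRP thus ranged from 2.94 to 28.0 CPM, and the lowest CGRP library lay above the highest of them. Against IL-33 alone, 4.83% of all genes tested were higher with CGRP with no overlap. With NMU, *Mt1* was low in both genotypes, at 9.61 and 5.75 CPM in WT and at 5.41 and 7.84 CPM in *Pac1*-/- ILC2s. In the order of levels, CGRP, IL-7, NMU, and IL-33 in WT ILC2s, NMU and IL-33 overlapped and the other neighbours did not. In *Pac1*-/- ILC2s the order was CGRP, IL-33, IL-7, and NMU, and no neighbours overlapped. The numbers of counts behind these values ran from 30 to 2803 per library.

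**Figure D1:**
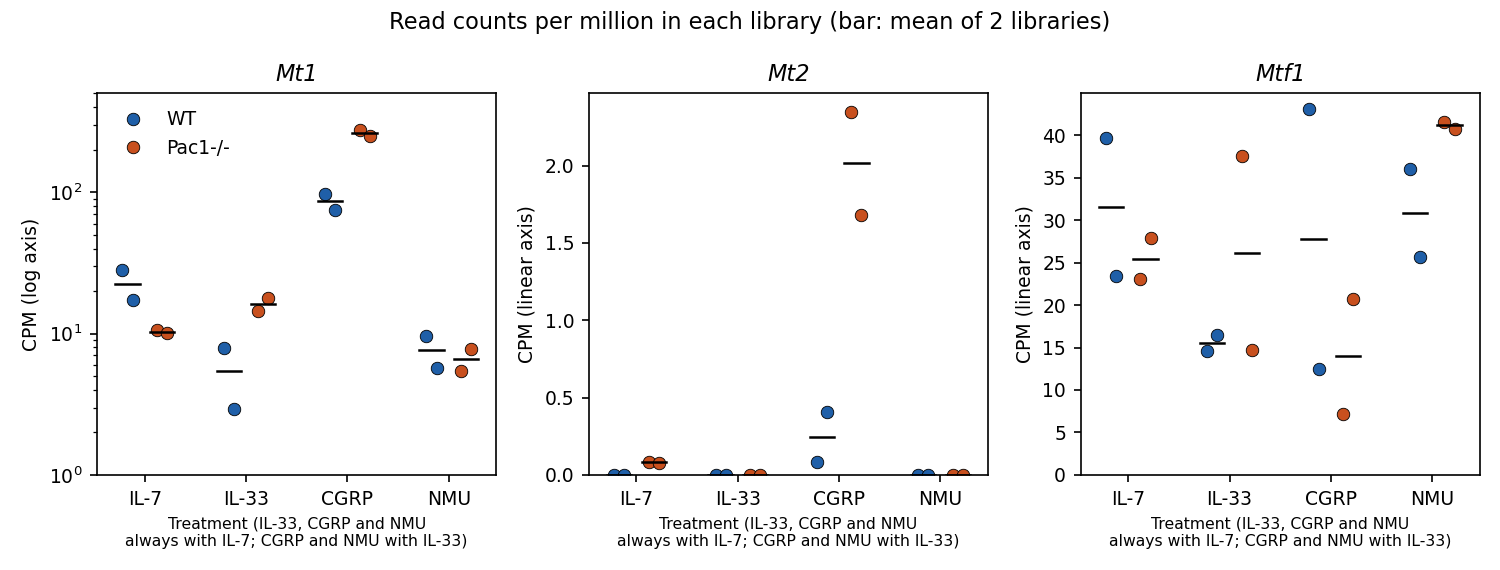
CPM of *Mt1* (log axis), *Mt2*, and *Mtf1* (linear axes) in each of the 16 libraries, by treatment (horizontal axis) and genotype (color), with the mean of the 2 libraries as a bar. *Mt1* lies between 75.2 and 274 CPM in the CGRP libraries and between 2.94 and 28.0 CPM in the other 12, *Mt2* is above 1 CPM in the *Pac1*-/- CGRP libraries only, and *Mtf1* overlaps between most groups.

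*Mt2*, the neighbouring gene with the same function, had few counts. It had 24 and 14 counts in the *Pac1*-/- CGRP libraries (2.35 and 1.68 CPM), 1 and 4 counts in the WT CGRP libraries (0.0809 and 0.41 CPM), 1 count in each *Pac1*-/- IL-7 library, and 0 in the other 10. With CGRP, its mean in *Pac1*-/- ILC2s (2.01 ± 0.473 CPM, SD, *n* = 2) was at least 6.49-fold higher than the floor of the *Pac1*-/- IL-33 libraries and at least 7.37-fold higher than that of the *Pac1*-/- NMU libraries, each taken as 3 counts in the shallower library. The WT CGRP libraries did not both exceed the floor, so that no fold is given. Per kilobase of the longest protein-coding transcript (1085 bases for *Mt1* and 511 for *Mt2*), the level of *Mt1* was 55.0 and 69.8 times that of *Mt2* in the *Pac1*-/- CGRP libraries. The source of the *Mt2* counts is uncertain in part. An antisense gene, *Gm45774*, shares 432 of the 588 exon bases of *Mt2* (73.5%), and whether counting used strand, or dropped reads shared by overlapping genes, is not given in the sources used here. Dropped reads would lower *Mt2* and raise the ratio of *Mt1* to *Mt2* given above, which was not tested. *Gm45774* had 12 counts in the first *Pac1*-/- CGRP library, 1 in the first WT CGRP library, and 0 in the other 14. *Mt1* overlaps no annotated gene, and its transcripts had no stretch of 100 or more bases at 95% identity or more in another gene. The longest alignment between *Mt1* and *Mt2* transcripts was 92 bases at 82.6% identity.

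*Mtf1*, the transcription factor that reads zinc for the metallothioneins, was detected in every library. It measured 39.7 and 23.5 CPM with IL-7 in WT, 23.1 and 27.9 CPM with IL-7 in *Pac1*-/-, 14.6 and 16.5 CPM with IL-33 in WT, and 37.6 and 14.7 CPM with IL-33 in *Pac1*-/- ILC2s. With CGRP, it was at 43.1 and 12.5 CPM in WT and at 7.14 and 20.8 CPM in *Pac1*-/- ILC2s. With NMU, it was at 36.1 and 25.7 CPM in WT and at 41.6 and 40.7 CPM in *Pac1*-/- ILC2s. The replicates of the WT CGRP group lay farthest apart, and over both genotypes the ranges of all 4 treatments overlapped their neighbours in the order NMU, IL-7, CGRP, and IL-33. *Mtf1* shares 721 of its 8907 exon bases with *1110065P20Rik*, which had at most 21 counts in a library.

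*Slc30a1*, the zinc exporter that MTF1 activates, had 0 counts in 16 of 16 libraries, which allows at most 0.188 to 0.443 CPM depending on the library if no reads were lost in counting. The antisense gene *1700034H15Rik*, which shares 468 of its 5244 exon bases, also had 0 counts in all 16. The zinc importer *Slc39a7* was likewise at 0 in every library, and *Gm20427* shares 2084 of its 2584 exon bases and had 0 counts too. Reads shared by overlapping genes may have been left out by the counting. The shared bases are 8.92% of the exon bases of *Slc30a1* and 80.7% of those of *Slc39a7*. The part of such reads in either zero was not tested, and the bound above holds only if none were lost. Of the other metallothioneins, *Mt3* was detected in 2 libraries, at up to 0.588 CPM, and *Mt4* in 1, at 0.323 CPM.

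CGRP was compared with IL-33 to ask how *Mt1* and the zinc genes around it stood when the neuropeptide was added. Over both genotypes, with genotype as a covariate, the log2 fold change of *Mt1* was 4.29 ± 0.33 (SE), from a mean of 10.7 ± 6.63 CPM with IL-33 to 174 ± 102 CPM with CGRP (SD, *n* = 4 libraries). In WT ILC2s the mean rose 15.9-fold (log2 fold change 4.15 ± 0.55), and in *Pac1*-/- ILC2s 16.3-fold (4.37 ± 0.55). With any 1 of the 8 libraries removed, the pooled value stayed between 4.08 and 4.59. Of 13160 genes tested, 202 were higher with CGRP at a fold change over 1.5 and an adjusted *P* value under 0.05 (1.53%, or 1.75% in either direction). No call is given for *Mt1*, which was chosen for this rise. The log2 fold change of *Mtf1* was 0.23 ± 0.70, from -0.44 without the first WT CGRP library to 0.74 without the first *Pac1*-/- IL-33 library, with 0.99 ± 0.75 in WT and -0.59 ± 0.75 in *Pac1*-/- ILC2s. The sum of the B cell markers given above was also higher in the *Pac1*-/- CGRP libraries, though *Ebf1* overlapped between genotypes. The B lineage gene *Iglc2* was at 60.7 to 162 CPM in all 4 CGRP libraries and at most 8.52 CPM in the other 12. The part of these B lineage genes in the rise of *Mt1* was not tested. The 4 mast cell or basophil markers summed to 137 and 177 CPM in the WT CGRP libraries and to 26.0 to 78.1 CPM in the other 14. In the WT CGRP libraries this sum was mostly *Cpa3* (137 and 163 CPM). *Fcer1a* was at 0 and 14.6 CPM there, and *Mcpt8* and *Ms4a2* were at 0 in both. The part of these markers was not tested.

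**Figure D2:**
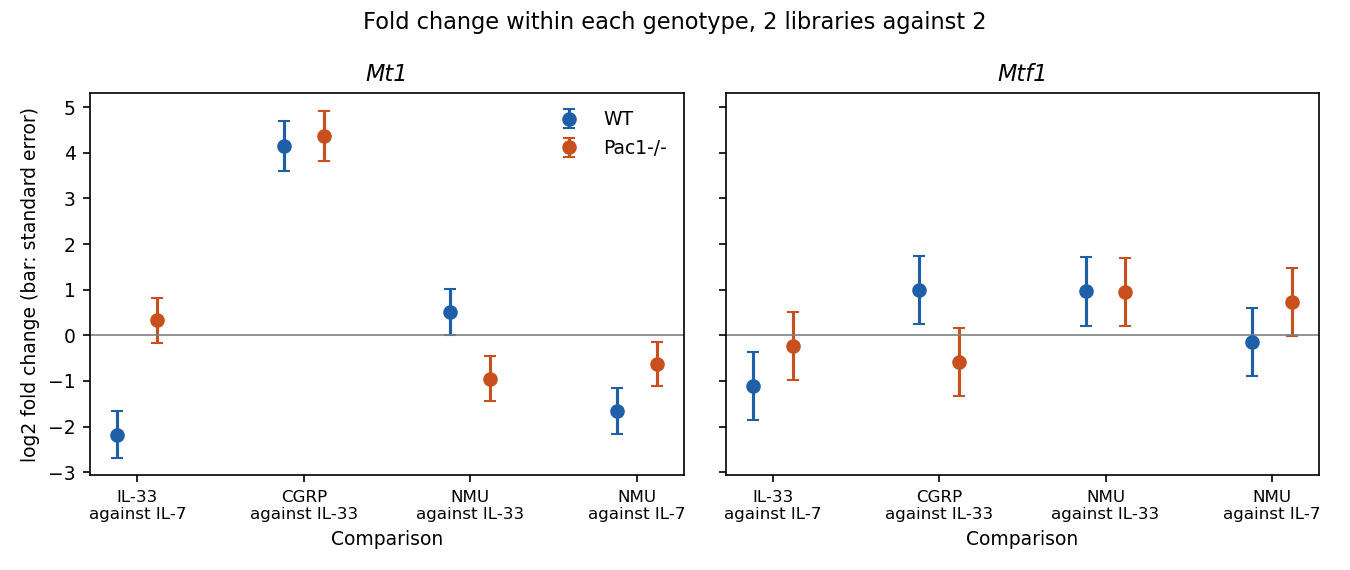
Log2 fold change (vertical axis, with the SE as a bar) of *Mt1* and *Mtf1* for 4 comparisons of treatments (horizontal axis), within WT and *Pac1*-/- ILC2s (color), 2 libraries against 2. *Mt1* rises by 4.15 and 4.37 with CGRP against IL-33, while its change with IL-33 against IL-7 is -2.17 in WT and 0.33 in *Pac1*-/- ILC2s.

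The zinc transporters did not pass the cutoff with CGRP against IL-33. SLC30 proteins export zinc from the cytoplasm, and 0 of the 4 family genes tested (of 10 listed) were called, with log2 fold changes from -1.50 ± 0.62 for *Slc30a6* to -0.12 ± 0.29 for *Slc30a7* and a median of -0.31. SLC39 proteins import zinc into the cytoplasm, and 0 of 10 tested (of 14 listed) were called, although 8 of the 10 had negative values, with a median of -1.48 beside -0.089 for all genes tested. *Slc39a1*, an importer at the cell surface, had 13.7 to 18.8 CPM with CGRP and 22.6 to 88.0 CPM with IL-33. Its ranges did not overlap, as was so for 8.09% of all genes tested in this direction, and its log2 fold change was -1.27 ± 0.46 (edgeR's quasi-likelihood test, adjusted *P* = 0.248). *Slc39a14*, which also carries iron, had the most negative value, -4.17 ± 1.46 (adjusted *P* = 0.235), with 0 to 2.64 CPM with CGRP and 2.97 to 28.3 CPM with IL-33. These 2 genes were named after their values were seen. Of 5 genes known to depend on MTF1, 0 of 5 tested were called, with 2 positive and 3 negative values (median -0.11). These genes were not split by whether MTF1 raises or lowers them, so the median does not measure MTF1 activity. *Slc39a10* was counted both here and among the importers. For copper handling, 0 of 7 tested were called (median 0.23), and for iron handling 0 of 6 (median -0.29).

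Genes of other programs that can bear on metallothioneins were called in part. Of the 10 genes of the oxidative stress response driven by NRF2, 1 fell with CGRP, 0 rose, and 9 of the 10 values were negative, with a median of -1.30. The gene past the cutoff was *Txnrd1*, which encodes thioredoxin reductase, with 37.7 to 77.4 CPM with CGRP and 99.3 to 299 CPM with IL-33 and a log2 fold change of -1.47 ± 0.26 (edgeR, adjusted *P* = 0.0295). Over all genes, 0.213% were lower past the cutoff. Of 8 glucocorticoid-responsive genes, *Dusp1*, a phosphatase of MAP kinases that is also induced by cAMP, rose from 20.8 to 39.6 CPM with IL-33 to 94.8 to 138 CPM with CGRP (log2 fold change 2.05 ± 0.26, adjusted *P* = 0.00764), and the other 7 were not called. *Tsc22d3* and *Fkbp5*, which are more specific to glucocorticoids, had log2 fold changes of 0.92 ± 0.45 and 0.75 ± 1.38 (adjusted *P* = 0.385 and 0.886). Of 7 cAMP-responsive genes, 3 rose past the cutoff and all 7 values were positive (median 1.45). Over all genes, 1.53% were higher past the cutoff. *Fosb*, an AP-1 subunit, rose from 10.4 to 23.6 CPM to 108 to 244 CPM (3.69 ± 0.29, adjusted *P* = 0.000605). *Nr4a1*, a nuclear receptor of the immediate-early class, changed by 1.60 ± 0.28 (adjusted *P* = 0.0309), and *Pde4b*, a phosphodiesterase that breaks down cAMP, by 1.45 ± 0.25 (adjusted *P* = 0.0285). With each of the 8 libraries left out in turn, *Fosb* and *Dusp1* stayed past the cutoff in 8 of 8 fits. *Nr4a1* stayed in 7, losing the call without the first WT IL-33 library (adjusted *P* = 0.0534). *Txnrd1* stayed in 5, losing it without the first library of the WT IL-33, *Pac1*-/- IL-33, or WT CGRP group (adjusted *P* up to 0.0858), and *Pde4b* stayed only when the second WT CGRP library was the one left out (adjusted *P* up to 0.123 in the other 7). In the WT libraries alone, 2 against 2, edgeR called 0 of 10914 genes (1394 at an unadjusted *P* value under 0.05). A fit that called no gene at all cannot tell whether these genes changed in WT ILC2s.

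**Figure D3:**
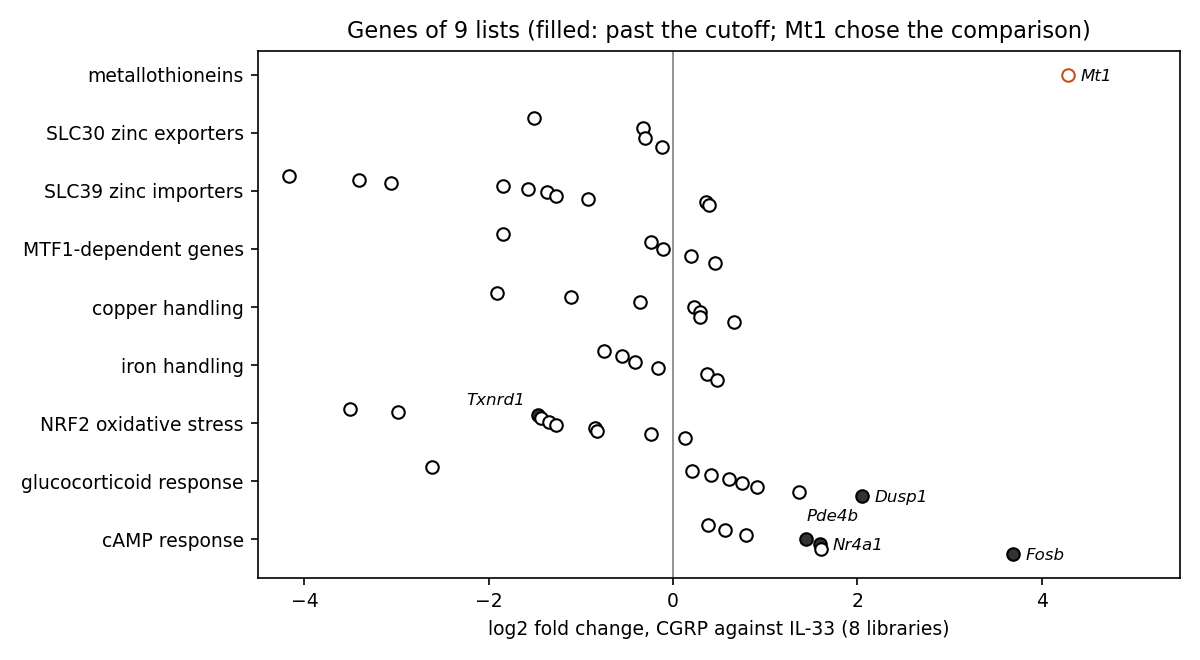
Log2 fold change of each tested gene of 9 lists (rows) for CGRP against IL-33 over 8 libraries (horizontal axis), with genes past the cutoff filled and named. *Mt1*, outlined in orange, is at 4.29, and the values of the zinc transporters run from -4.17 to 0.39, and *Mt2* is left out because its IL-33 libraries were all at 0.

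The effect of PAC1 deficiency on these genes was compared within the CGRP libraries, as in the design of the study, and over all 16 libraries. With CGRP, *Mt1* was 3.04 times as high in *Pac1*-/- as in WT ILC2s (262 ± 17.9 against 86.1 ± 15.3 CPM, SD, *n* = 2). Both *Pac1*-/- libraries were above both WT libraries, as they were for 22.6% of the 10912 genes tested. The log2 fold change was 1.55 ± 0.25 (95% interval 0.88 to 2.21) and did not pass the cutoff with edgeR's quasi-likelihood test (adjusted *P* = 0.552). No gene was called in this comparison by edgeR (0%, with 822 genes at an unadjusted *P* value under 0.05), whereas DESeq2 called 202. *Mt1* was among the genes past the cutoff with DESeq2 (adjusted *P* = 0.00125) and with edgeR without a filter on low counts (adjusted *P* = 0.00694). With 1 library left out, its log2 fold change was 1.34 to 1.77. This is the comparison in which the sum of the B cell markers also stood apart, and the part of these markers was not tested. *Mt2* had 38 counts over both *Pac1*-/- libraries and 5 over both WT libraries, with a log2 fold change of 2.95 ± 1.53. It passed the filter on low counts only through the *Pac1*-/- CGRP libraries, so this value is a description without a test. *Mtf1* was at -1.05 ± 1.01 (95% interval -3.74 to 1.64, adjusted *P* = 0.996), and it turned to 0.15 without the first WT CGRP library.

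The difference of *Mt1* between genotypes had both directions among the treatments. Its level in *Pac1*-/- relative to WT ILC2s was 0.458 with IL-7, 2.98 with IL-33, 3.04 with CGRP, and 0.863 with NMU. The genotypes did not overlap with IL-7, IL-33, and CGRP, and overlapped with NMU. With 2 libraries against 2 such separation was common, in 16.4% of all genes tested for lower values with IL-7 and in 26.2% for higher values with IL-33. Over all 16 libraries, with treatment as a covariate, the log2 fold change of *Mt1* was 0.43 ± 0.38 (95% interval -0.37 to 1.23, adjusted *P* = 0.981), and it was 0.013 without the 4 CGRP libraries. Of all genes, 0.0801% passed the cutoff in this comparison, and neither *Mt1* nor *Mtf1* did. Here too *Mt2* passed the filter on low counts only through the *Pac1*-/- CGRP libraries, and no test of it is given. *Mtf1* was at -0.070 ± 0.38 (95% interval -0.88 to 0.74, adjusted *P* = 1), and it was 0.25 without the CGRP libraries.

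Whether *Mt1* responded to CGRP to a different extent in the genotypes was tested as an interaction. The response differed by 0.19 ± 0.63 on the log2 scale, with a 95% interval from -1.26 to 1.63 (edgeR, adjusted *P* = 0.9999). It turned to -0.62 without the first WT IL-33 library and was 0.71 without the second. For *Mtf1* the difference was -1.59 ± 1.33 (95% interval -4.65 to 1.47, adjusted *P* = 0.946). Among all 13160 genes tested, 0% passed the cutoff, with 719 at an unadjusted *P* value under 0.05, and DESeq2 called 113. Without the second WT CGRP library edgeR called 56.

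IL-33 was compared with IL-7 to follow activation by the alarmin. *Mt1* had a log2 fold change of -0.92 ± 0.71 over both genotypes, given without a test because the level with IL-33 over both genotypes entered the choice of the genes. Within WT ILC2s its log2 fold change was -2.17 ± 0.51, with no overlap (28.0 and 17.2 against 7.85 and 2.94 CPM). Within *Pac1*-/- ILC2s it was 0.33 ± 0.48, a rise smaller than its SE, with no overlap (10.5 and 10.1 against 14.3 and 17.8 CPM). Of all genes tested, 15.6% were separated downward in WT and 32.3% upward in *Pac1*-/- ILC2s. The difference between the genotypes in this response was 2.51 ± 1.11, with a 95% interval from -0.022 to 5.05, in a test added after the opposite directions had been seen (edgeR, adjusted *P* = 0.797). In this test 0% of 12980 genes passed the cutoff, with 734 at an unadjusted *P* value under 0.05 and 60 called by DESeq2. *Mtf1* was at -0.67 ± 0.46 with IL-33 against IL-7 (adjusted *P* = 0.709). In this comparison 6 genes passed the cutoff (0.0462%), and none was in the lists. The zinc importers had a median of 0.81 with 9 of 10 positive values, beside 0.089 for all genes, and the NRF2 list a median of 0.49 with 10 of 10 positive.

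NMU was compared with IL-7, which is the comparison of treatments that uses neither the CGRP nor the IL-33 libraries. The choice of the genes did not name these 2 treatments, but it was made with all 4 treatments in view. *Mt1* was lower with NMU, and all 4 NMU libraries (5.41 to 9.61 CPM) lay below all 4 IL-7 libraries (10.1 to 28.0 CPM). Of all genes tested, 4.26% were separated in this direction. The log2 fold change was -1.15 ± 0.53 (95% interval -2.34 to 0.046) and did not pass the cutoff (edgeR, adjusted *P* = 0.37, range over the alternatives 0.203 to 0.934), and it was -1.66 ± 0.50 in WT and -0.63 ± 0.49 in *Pac1*-/- ILC2s. *Mtf1* was at 0.29 ± 0.35 (95% interval -0.51 to 1.08, adjusted *P* = 0.813). Of the 2 members tested, 0 were called, beside 0.817% of all genes. The sums of the epithelial, macrophage, and endothelial markers were higher in the WT NMU libraries, led by *Sftpc*, *Lyz2*, and *Pecam1*. Not every marker of these lists was higher, and the part of these markers was not tested. Of the listed genes, *Nr4a1* alone was called, higher with NMU as were 0.539% of all genes (1.76 ± 0.19, adjusted *P* = 0.00812), while the zinc exporters (0 of 4 called, median 0.31) and importers (0 of 9 called, median 0.69) were not. Its call stayed with each of the 8 libraries left out in turn.

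Against IL-33, NMU left *Mt1* at a log2 fold change of -0.22 ± 0.67, with 0.51 ± 0.50 in WT and -0.95 ± 0.49 in *Pac1*-/- ILC2s. *Mtf1* was higher by 0.97 ± 0.40 and did not pass the cutoff (edgeR, adjusted *P* = 0.603). Its values were close in the genotypes, 0.97 ± 0.75 in WT and 0.95 ± 0.75 in *Pac1*-/- ILC2s, and its ranges overlapped through the first *Pac1*-/- IL-33 library. In this comparison 0.103% of 12567 genes were called, and none was in the lists. The comparisons that use the IL-33 libraries, and those that use the IL-7 libraries, share these as controls.

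The genes whose levels were most like that of *Mt1* over the 16 libraries were sought among the 4893 genes that averaged 20 CPM or more, by Pearson's correlation of log2 CPM. This is a description without a test, because these libraries share treatments and the 4 CGRP libraries stand apart. *Fos*, the AP-1 subunit and immediate-early gene, came first (*r* = 0.956, Spearman's rho = 0.932), with 372 and 456 CPM in the WT CGRP libraries, 571 and 549 CPM in the *Pac1*-/- CGRP libraries, and 20.8 to 88.4 CPM in the other 12. *Impact*, an inhibitor of the stress kinase GCN2, followed (*r* = 0.937), with 112 to 201 CPM with CGRP and 30.1 to 65.5 CPM otherwise. *Iglc2*, an immunoglobulin light chain constant gene of B lineage cells, ranked 3 (*r* = 0.931), with 71.2 and 60.7 CPM in WT and 162 and 157 CPM in *Pac1*-/- ILC2s with CGRP and at most 8.52 CPM otherwise. *Atf3*, a stress-induced transcription factor, ranked 4 (*r* = 0.928), with 147 to 480 CPM with CGRP and 12.6 to 55.2 CPM otherwise. *Gm23849*, a small nuclear RNA gene, ranked 5 (*r* = 0.922), with 26.2 to 131 CPM with CGRP and 5.65 to 20.1 CPM otherwise. Spearman's rho was 0.741 for *Impact*, 0.772 for *Iglc2*, 0.665 for *Atf3*, and 0.868 for *Gm23849*. With a prior count of 0.5 in place of 2 for the logarithm, 4 of these 5 genes stayed among the first 5, and *Iglc2* fell to rank 12.

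**Figure D4:**
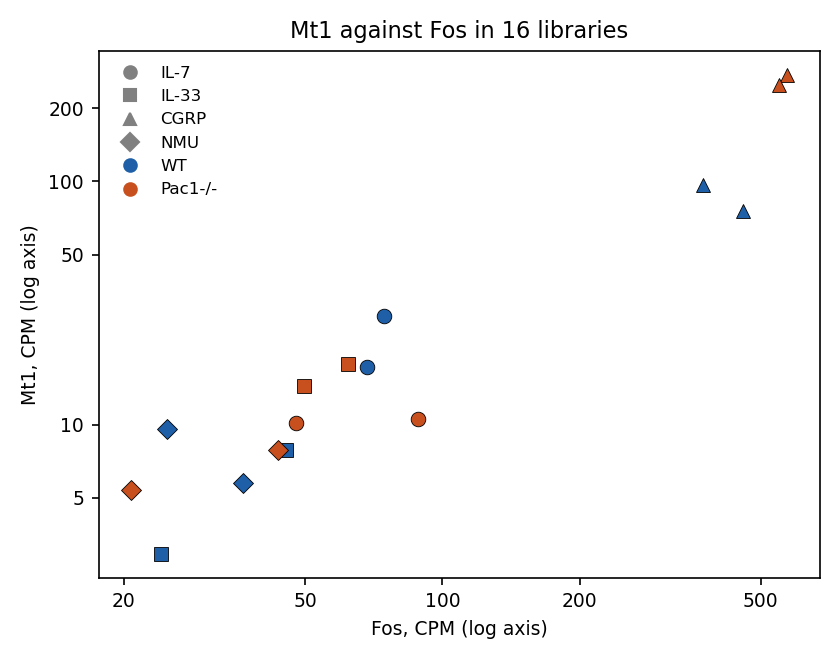
CPM of *Mt1* (vertical axis) against CPM of *Fos* (horizontal axis), both on log axes, with a symbol for each of the 16 libraries by treatment (shape) and genotype (color). The 4 CGRP libraries lie apart at 372 to 571 CPM of *Fos* and 75.2 to 274 CPM of *Mt1*.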

How the data were processed

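mRNA-Seq was performed on 16 libraries of sorted and expanded lung ILC2s, 2 for each of 8 groups. The authors amplified full-length cDNA, sequenced it in pairs, and aligned the reads with HISAT2 to the mouse genome (mm10). The authors deposited raw read counts per gene. The counting program, its annotation, and its use of strand are not given in the sources used here. Of 51912 gene identifiers, 51719 matched GENCODE release M21, from which positions and names were taken.

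From the counts, levels were computed as CPM of counted reads, without scaling factors. Comparisons used edgeR's quasi-likelihood test (edgeR 4.0.16, R 4.3.3) with TMM factors on genes kept by filterByExpr, over all genes. Genes were called at a fold change over 1.5 and *P* under 0.05 after Benjamini-Hochberg adjustment. SEs were derived from the F statistic, and 95% intervals from the t distribution with the degrees of freedom of the fit. The fits were tested on simulated data. Treatment comparisons had genotype as a covariate and the genotype comparison over 16 libraries had treatment. Alternatives were RLE factors, DESeq2 (1.42.0), no filter, all 16 libraries in 1 fit, a replicate block, and each library left out. Fits within 1 genotype, without the CGRP libraries, and of the genotype by IL-33 interaction were added after seeing the data. The members and lists were chosen with earlier results of these data known. The genes named were the 4 members, *Dusp2*, listed genes past the cutoff (up to 5 by *P* value in a comparison), and the 5 genes most like *Mt1*. Other listed genes, overlapping genes, and markers were named after their values were seen. A further B cell marker is not reported here, and the B cell sums leave it out. Gene likeness used a prior count of 2. Alignments between transcripts used BLAST 2.17.0.

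Same-numbered libraries were checked for pairing by correlating their deviations from the group means. Of 28 pairs of groups, 0 had a correlation over 0.1 (range -0.065 to 0.039), so that the main fits carried no replicate block.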

Additional observations from a re-analysis of the deposited data

Results flagged for a closer look

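The response of *Mt1* to IL-33 against IL-7 had opposite directions in the genotypes. Its log2 fold change was -2.17 ± 0.51 in WT and 0.33 ± 0.48 in *Pac1*-/- ILC2s, the latter smaller than its SE. In both genotypes the libraries of the treatments did not overlap. This was so for 15.6% of all genes in the downward direction in WT and 32.3% in the upward direction in *Pac1*-/- ILC2s. The test of this difference, added after it was seen, gave 2.51 ± 1.11 and did not pass the cutoff (edgeR's quasi-likelihood test, adjusted *P* = 0.797, range over the alternatives 0.545 to 1). Read the other way, *Mt1* in *Pac1*-/- against WT ILC2s was at -1.15 with IL-7 and at 1.34 with IL-33, 2 comparisons that share their libraries with the ones above, and at 1.56 with CGRP in the fit of all groups. The opposite directions with IL-7 and with CGRP were not tested against each other.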

How the results depend on the processing

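Of 267 recomputed log2 fold changes of *Mt1*, *Mt2*, and *Mtf1*, 252 kept their direction and their side of the cutoff or moved by less than the spread between replicates. Counts of called genes moved more. For NMU against IL-7 (103 genes), DESeq2 called 744, no filter 557, and the *Pac1*-/- libraries alone 0, and leaving out a library gave 60 to 175. For IL-33 against IL-7 (6), DESeq2 called 423, no filter 201, and leaving out a library gave 12 to 37. For NMU against IL-33 (13), DESeq2 called 170, no filter 77, the fit of 16 libraries 28, the *Pac1*-/- libraries alone 3, and leaving out a library gave 15 to 38. For CGRP against IL-33 (230), DESeq2 called 1078, no filter 639, the fit of 16 libraries 413, the WT libraries alone 0, and leaving out a library gave 133 to 243. For *Pac1*-/- against WT (12), DESeq2 called 77, no filter 62, the fit without CGRP libraries 6, and leaving out a library gave 10 to 16. With CGRP (0), DESeq2 called 202, no filter 82, and the fit of 16 libraries 16. For the genotype by CGRP interaction (0), DESeq2 called 113, no filter 44, and leaving out a library gave 0 to 56. The cause of these shifts was not tested.

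Some uncalled values turned their sign. Among values given without a test, *Mtf1* with CGRP against IL-33 turned to -0.44 without the first WT CGRP library. *Mt1* with NMU against IL-33 turned to 0.029 without the first *Pac1*-/- NMU library. Both moved by less than the spread between replicates and count among the 252. *Mtf1* in *Pac1*-/- against WT ILC2s turned to 0.25 without the CGRP libraries and to 0.045, 0.011, 0.24, and 0.13 without the first WT IL-7, second *Pac1*-/- IL-33, first WT CGRP, and first *Pac1*-/- CGRP library, and with CGRP alone it turned to 0.15 without the first WT CGRP library. The interaction with CGRP for *Mt1* turned to -0.62 without the first WT IL-33 library, and that with IL-33 for *Mtf1* to -0.084 without the first *Pac1*-/- IL-33 library. Leaving out 1 library gave ranges of -0.29 to 0.24 for *Mtf1* over all libraries, -2.06 to 0.15 with CGRP, -0.62 to 0.71 for the interaction of *Mt1* with CGRP, and -0.084 to 1.46 for the interaction of *Mtf1* with IL-33. The replicate numbers were not found to pair the libraries, and a replicate block moved the count for CGRP against IL-33 to 175 and the value of *Mt1* to 4.31, and changed no call of a member. *Mt2* was near or under the floor of 3 counts outside the *Pac1*-/- CGRP libraries and *Slc30a1* was at 0 in all 16, and the part of depth or of reads dropped in counting was not tested.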
